A study of Homo sapiens with 18 samples.

Results

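The genes of the proteasome named by the symbols PSMA, PSMB, PSMC, PSMD and PSME were followed across stages of beta cell differentiation, across a GFP sort, and in RNA and ribosome footprints. They were taken as all protein-coding rows of the deposited count table whose symbol is one of these stems plus a number, leaving out the interferon-induced subunits PSMB8, PSMB9 and PSMB10. The rule gave 40 genes of 57808 rows, of which 19032 were protein-coding. By role, 7 encode the alpha ring and 7 the beta ring of the core, 9 the base and 8 the lid of the regulatory particle, 3 are chaperones of base assembly, 4 are activators, and PSMA8 and PSMB11 are tissue forms. The rule goes by symbol, so the subunits ADRM1 and SEM1, which have other names, are not among the 40 and are described with the other genes of the pathway.

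The cells were of the MEL1 line, an established human embryonic stem cell line with a GFP reporter in the insulin gene (INSGFP/W). The stages sampled were undifferentiated stem cells (hPSC), DE (definitive endoderm, from which gut and pancreas develop) and sBC, the beta-like cells derived from them, which were grown in a stirred suspension bioreactor and sorted into GFP+ and GFP- cells. Each of 9 groups had 2 libraries: RNA-seq of hPSC, DE, GFP+ sBC and GFP- sBC, total ribosome footprints (Ribo) of hPSC and DE, and footprints pulled down with an anti-FLAG antibody (IP-Ribo) of hPSC, DE and GFP+ sBC. The labels give hPSC and DE the genotype RPL22-FLAG, a tagged ribosomal protein, and give the GFP+ sBC of IP-Ribo RPL22-FLAG by lentivirus, whereas the sBC of RNA-seq are labelled only GFP+ or GFP-. In every comparison of GFP+ sBC with hPSC or DE, stage and construct therefore cannot be told apart, and between the footprints and the RNA of GFP+ sBC, assay and construct cannot. Only the sBC are described as sorted, and their libraries are numbered apart from those of hPSC and DE. The RNA libraries of GFP+ sBC held 29.79 M and 30.86 M counts, against 79.77 M to 92.53 M in hPSC and DE. Sorting, library series and, in RNA, depth thus cannot be told apart from stage either. Nothing in the labels states that replicate libraries are separate cultures, and the p-values then measure only the spread between libraries, which may be technical.

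The proteasome is the protease that degrades proteins marked with ubiquitin. Its core is a barrel of stacked alpha and beta rings with the catalytic sites on PSMB5, PSMB6 and PSMB7, and the regulatory particle that caps the barrel has a base, with the ATPases PSMC1 to PSMC6 that unfold substrates, and a lid, with the deubiquitinase PSMD14. Activators of the PSME family can open the core in place of that cap. In beta cells the pathway removes, among other substrates, misfolded proinsulin sent back from the endoplasmic reticulum.

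The sequences upstream of 4 members are printed because these members were among those that changed most: PSME3 and PSMA2 fell in GFP+ sBC, where PSMA7, which has no window in the table used, fell more than PSMA2, and PSMD9 and PSME4 rose in DE. Each is the 250 bases before the annotated start of the gene, read 5′ to 3′ on the gene's strand, from RefSeq (GRCh38.p14). The window of PSME3 (ENSG00000131467.10) is chr17:42833147-42833396 on the plus strand, that of PSMA2 (ENSG00000106588.10) is chr7:42932175-42932424 on the minus strand, that of PSME4 (ENSG00000068878.14) is chr2:53970994-53971243 on the minus strand and that of PSMD9 (ENSG00000110801.13) is chr12:121888540-121888789 on the plus strand. Capitals mark matches, on either strand, to the CCAAT box, to TGACNNNGC, the core of the antioxidant response element through which NFE2L1 acts on proteasome genes, and to the ETS motif CCGGAAG.
PSME3: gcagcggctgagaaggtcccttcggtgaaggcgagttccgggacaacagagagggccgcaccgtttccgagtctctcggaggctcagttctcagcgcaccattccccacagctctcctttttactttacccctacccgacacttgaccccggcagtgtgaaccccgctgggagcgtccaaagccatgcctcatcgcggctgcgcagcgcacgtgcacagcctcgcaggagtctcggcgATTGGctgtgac
PSMA2: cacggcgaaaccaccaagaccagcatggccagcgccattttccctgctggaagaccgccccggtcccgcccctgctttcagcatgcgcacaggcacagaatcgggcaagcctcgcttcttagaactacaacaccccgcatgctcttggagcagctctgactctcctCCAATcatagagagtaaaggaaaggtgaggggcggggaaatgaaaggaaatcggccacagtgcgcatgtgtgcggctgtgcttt
PSME4: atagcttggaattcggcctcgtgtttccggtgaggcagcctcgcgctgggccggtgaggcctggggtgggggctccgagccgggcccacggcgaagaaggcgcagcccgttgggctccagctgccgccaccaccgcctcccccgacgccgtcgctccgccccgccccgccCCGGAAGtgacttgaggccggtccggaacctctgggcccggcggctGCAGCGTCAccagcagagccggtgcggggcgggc
PSMD9: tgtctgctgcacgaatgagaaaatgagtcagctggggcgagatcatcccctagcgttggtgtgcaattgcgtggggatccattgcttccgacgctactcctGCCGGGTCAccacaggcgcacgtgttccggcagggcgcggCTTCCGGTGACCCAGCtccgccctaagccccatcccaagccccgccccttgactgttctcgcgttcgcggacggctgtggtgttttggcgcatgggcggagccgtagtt

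Of the 40 members, 35 had such a window in the table, 41 windows in all, and PSMA7, PSMB1, PSMB6, PSMB7 and PSMD4 had none. CCAAT was in 41.5% of the members' windows and in 32% of all 35116 windows of the same length. TGACNNNGC was in 24.4% of the members' windows against 10.9% of all, among them those of PSMA4, PSMB3, PSMC5, PSMD12, PSME1 and PSME2. CCGGAAG was in 22% against 8.52%. Of the printed windows, PSME3 and PSMA2 had a CCAAT box alone, while PSME4 and PSMD9 had the other motifs and no CCAAT. A match describes these letters only and is not a measured site.

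PSMA8, the alpha subunit of the testis, and PSMB11, the catalytic subunit of the thymus cortex, were nearly absent. PSMA8 had 0 to 7 counts and PSMB11 0 to 3 counts in a library, and neither passed the filter on low counts, so the name constitutive does not hold for them in these cells. The other 38 members were tested in every comparison, with at least 114 counts in every library. Shares of counts give the whole set. In RNA, the 40 genes held 0.6744% and 0.6933% of the counts of nuclear protein-coding genes in hPSC, 0.5788% and 0.5781% in DE, 0.3491% and 0.3843% in GFP+ sBC and 0.3657% and 0.4104% in GFP- sBC. The share was thus highest in hPSC and lowest in sBC, with no overlap between hPSC, DE and sBC, and the GFP+ and GFP- libraries overlapped. In IP-Ribo it was 1.1884% and 1.1979% in hPSC, 1.0703% and 1.1293% in DE and 0.7348% and 0.7529% in GFP+ sBC, in the same order. In Ribo it was 1.1375% and 1.1428% in hPSC and 0.6777% and 1.009% in DE. The low value belongs to DE Ribo replicate 1, which stood apart from the other libraries. Such shares fall alike when fewer cells hold a transcript, when each cell holds less and when other counted transcripts rise. These cannot be told apart from shares in bulk samples.

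**Figure D1:**
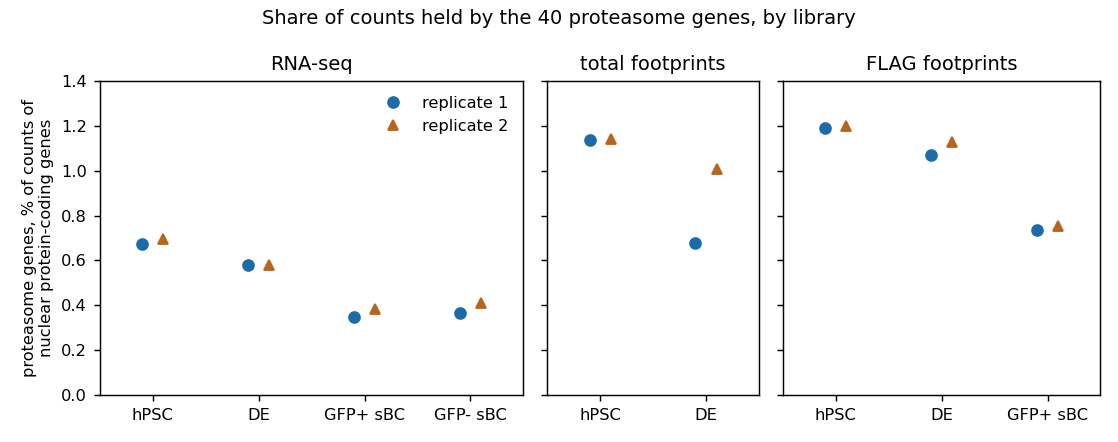
Counts of the 40 proteasome genes as a percentage of the counts of nuclear protein-coding genes (y axis, %), by stage and sort (x axis) in each assay, with 1 point per library. Every sBC library lies below every hPSC and DE library in RNA-seq and in FLAG footprints, and the 2 DE libraries of total footprints differ from each other, at 0.6777% and 1.009%.

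Library totals ran from 6.61 M to 92.53 M counts, the smallest being DE IP-Ribo replicate 1. Nuclear protein-coding genes took 40.5% of the counts of DE Ribo replicate 1, 54.6% and 62.8% of those of GFP+ sBC IP-Ribo, and 76.0% to 90.4% elsewhere. Markers followed the labels. The summed RNA of 5 pluripotency genes was 7550 to 8048 CPM (TMM-normalised counts, scaled to the library total) in hPSC. It was 2576 to 2742 in DE, which thus still held part of it, and 18.2 to 20.6 in GFP+ sBC. The sum of 5 endoderm genes was 3053 to 3224 in DE and 10.3 to 11.2 in hPSC, and INS had no counts in hPSC or DE. GFP+ sBC held RNA of other islet cells as well: 5 of their markers summed to 21221 to 31717 CPM there, and 5 beta cell markers to 5381 to 5678. The 5 genes of cycling cells summed to 1186 to 1216 CPM in hPSC RNA, 772 to 850 in DE, 5.65 to 8.89 in GFP+ sBC and 54.6 to 140 in GFP- sBC. This list moved with the proteasome genes across the stages. The 7 genes of dissociation and heat stress summed to 325 to 332 CPM in hPSC, 447 to 459 in DE, 919 to 1481 in GFP+ and 856 to 2259 in GFP- sBC. The part of either list in the results was not tested.

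Between hPSC and GFP+ sBC, the RNA of nearly the whole proteasome fell. All 14 core genes, all 9 base genes and all 8 lid genes were lower in GFP+ sBC, while only PSMD10 of the 3 chaperones and only PSME3 of the 4 activators were. In all, 33 of the 38 tested members were lower and 0 higher, with a median log2 fold change of -1.36. Of all 23321 genes tested, 30.9% were lower and 30.4% higher, with a median of 0.04, and the median of nuclear protein-coding genes was -0.24. The libraries of the 2 groups did not overlap for 37 members on the lower side and for 1, PSME1, on the higher side, against 43.8% and 43.3% of all genes.

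By median, the rings of the core fell most in RNA. The median was -1.90 for the alpha ring, -1.74 for the beta ring, -1.31 for the base and -1.49 for the lid. These medians were not tested against each other. The ranges overlapped, at -2.25 to -1.25 in the core, -1.84 to -0.85 in the base and -1.83 to -0.81 in the lid. PSMA7, an alpha ring subunit, had 341 and 355 CPM in hPSC, 289 and 283 in DE, 66.3 and 79.6 in GFP+ sBC and 120 and 87 in GFP- sBC. Its level in both kinds of sBC lay below every hPSC and DE library, and against hPSC its log2 fold change in GFP+ sBC was -2.25 ± 0.21 (SE, adjusted p = 9.52e-05). PSMA2, also of the alpha ring, had 281 and 303 CPM in hPSC and 58 and 77 in GFP+ sBC, a log2 fold change of -2.11 ± 0.38 (adjusted p = 0.00212). PSMB7, the trypsin-like catalytic subunit, had 189 and 203 CPM in hPSC, 185 and 175 in DE and 44.4 and 56.1 in GFP+ sBC. It fell by 1.96 ± 0.22 on the log2 scale from hPSC (adjusted p = 0.000235), and the libraries of GFP+ sBC did not overlap those of either earlier stage. The other catalytic subunits fell too. PSMB5, the chymotrypsin-like subunit, had 205 and 218 CPM in hPSC, 174 and 176 in DE and 77.2 and 87.9 in GFP+ sBC, a fall by 1.35 ± 0.21 on that scale from hPSC. PSMB6, the caspase-like subunit, had 172 and 179, 137 and 135, and 51.1 and 54.2 CPM in the same order, a fall by 1.74 ± 0.18. All 3 catalytic subunits thus had every GFP+ library below every DE library, and every DE library below every hPSC library.

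In the base, the ATPase PSMC3 fell most, by 1.84 ± 0.29 on the log2 scale, and the ATPase PSMC2 least, by 0.85 ± 0.20. The ubiquitin receptor PSMD4 had 186 and 187 CPM in hPSC, 150 and 143 in DE and 58.3 and 63 in GFP+ sBC, and fell by 1.62 ± 0.22 on that scale. PSMD2, the large scaffold subunit that binds ubiquitin and shuttle factors, had 425 and 428, 327 and 315, and 155 and 181 CPM, and fell by 1.34 ± 0.19. Neither overlapped between the stages. In the lid, PSMD11, which ties lid to base and has been described as abundant in embryonic stem cells, had 296 and 319 CPM in hPSC, 198 and 195 in DE and 93.6 and 79.6 in GFP+ sBC. These levels descended in the order hPSC, DE, GFP+ sBC without overlap, and the log2 fold change from hPSC was -1.83 ± 0.20 (adjusted p = 0.000175). PSMD14, the deubiquitinase, had 129 and 126, 82.4 and 79.2, and 41.4 and 42.8 CPM in the same order. It too descended without overlap, with a log2 fold change of -1.60 ± 0.26 from hPSC (adjusted p = 0.00134).

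Outside the core and its cap the pattern was uneven. PSME3, the nuclear activator, had 425 and 466 CPM in hPSC, 269 and 268 in DE, 73.4 and 79.3 in GFP+ sBC and 60.9 and 82.5 in GFP- sBC. It had the largest fall of the 38 tested members in GFP+ sBC, with a log2 fold change of -2.54 ± 0.20 from hPSC (adjusted p = 4.36e-05). PSME1, a subunit of the interferon-induced activator, had 38.9 and 40.5 CPM in hPSC and 40.9 and 43 in GFP+ sBC, a log2 fold change of 0.08 ± 0.17 (adjusted p = 0.708). Its partner PSME2 had 61 and 64.8 CPM in hPSC, 52.3 and 54.8 in DE and 37.2 and 44.7 in GFP+ sBC. Its log2 fold change (-0.62 ± 0.25, adjusted p = 0.0598) and that of the activator PSME4 (-0.25 ± 0.24, adjusted p = 0.402) did not pass the test. Of the chaperones, PSMD10, which binds the ATPase PSMC4, had 56.3 and 57.1 CPM in hPSC, 48.9 and 47.8 in DE and 28.8 and 29.3 in GFP+ sBC, a log2 fold change of -0.96 ± 0.28 from hPSC. PSMD5 had 103 and 108, 76.4 and 75.8, and 64.6 and 57 CPM in the same order, and neither it (-0.79 ± 0.37, adjusted p = 0.0997) nor PSMD9 (-0.51 ± 0.22, adjusted p = 0.0745) passed, although the GFP+ libraries of both lay below those of hPSC. Of PSME2, the pseudogene PSME2P6 held 10.78% as many counts over all libraries, so its value is less certain than the others. PSMC1P1 held 2.916% of the counts of PSMC1.

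Against DE, 33 members were again lower in GFP+ sBC and 0 higher, with a median of -1.05, where 30.9% of all genes were lower and 29.9% higher. All 14 core genes and all 8 lid genes fell, and 7 of 9 base genes did. PSMA6, another alpha ring subunit, fell most, from 188 and 193 CPM in DE to 45.3 and 48.3 in GFP+ sBC (log2 fold change -2.03 ± 0.24, adjusted p = 0.000303), followed by PSMA7 (-1.97 ± 0.21) and PSMB7 (-1.84 ± 0.22). All 38 members had both GFP+ libraries below both DE libraries, against 45.1% of all genes, and 0 had both above, against 42.4%. The comparisons against hPSC and against DE share the GFP+ libraries. Without GFP+ replicate 1, 21 members were lower than in DE, against 21% of all genes.

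The share of counts from nuclear protein-coding genes differed between stages, so the members were also fitted on those genes alone. In RNA it was 83.2% to 88.6% in hPSC, DE and GFP+ sBC. In IP-Ribo it was 84.1% to 90.4% in hPSC and DE and 54.6% and 62.8% in GFP+ sBC. In RNA the median over members was then -1.06 against hPSC, with 28 lower (30.8% of the genes in that fit). Against DE it was -0.76, with 26 lower (30.1%). The medians of all genes in that fit were 0.05 and -0.04. In IP-Ribo the medians over members were -1.19 with 31 lower against hPSC and -0.60 with 20 lower against DE. Of the 13640 genes there, 4092 and 3909 were lower, with medians of 0.15 and -0.00. In RNA PSME4 then had a log2 fold change of 0.06 against hPSC, so its sign there depends on the scaling.

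**Figure D2:**
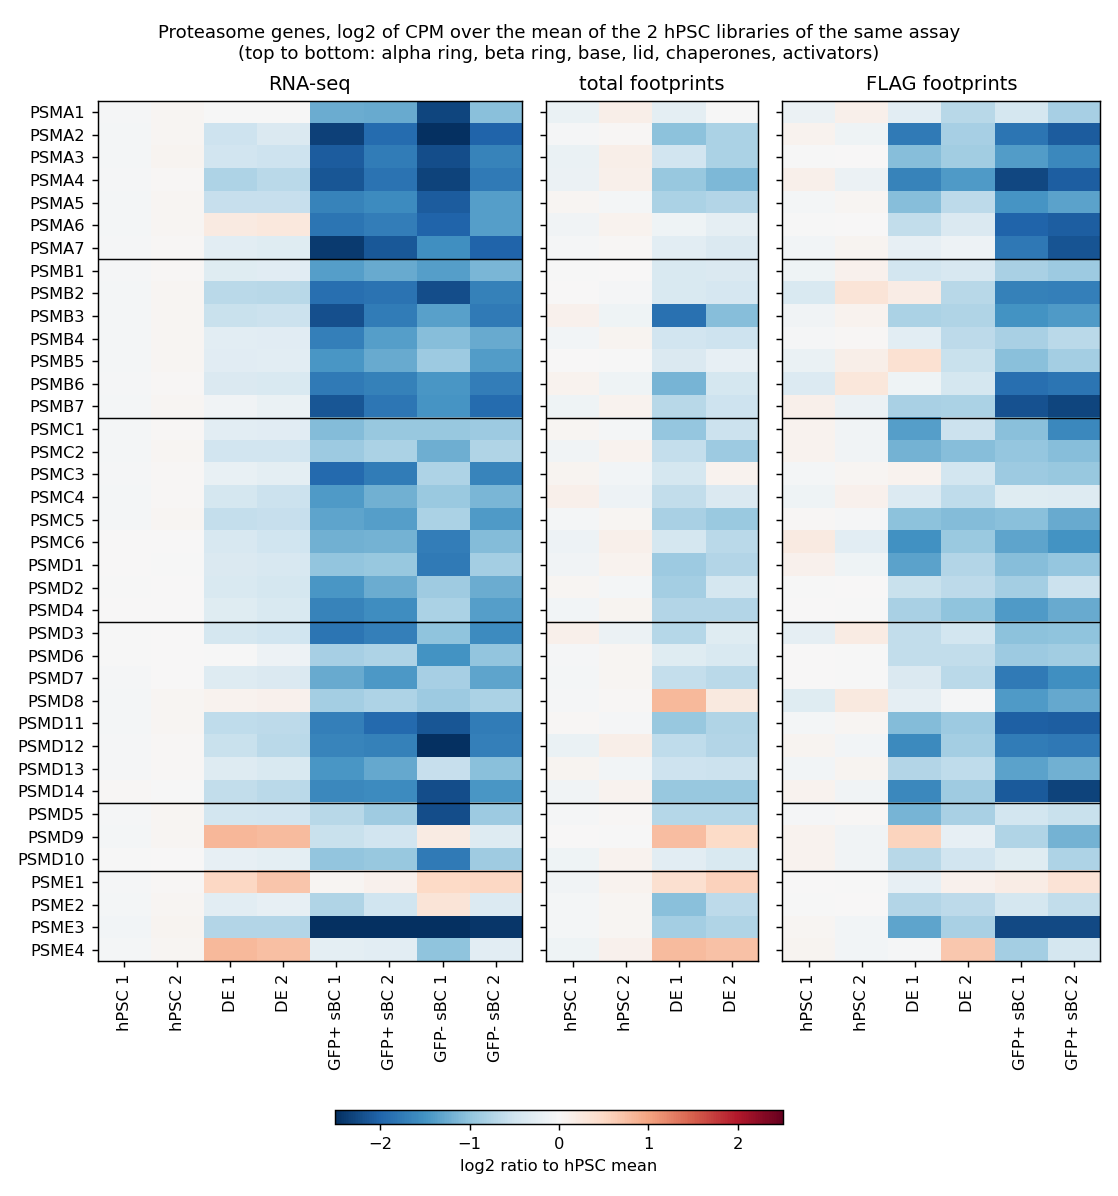
Log2 of CPM in each library over the mean of the 2 hPSC libraries of the same assay (colour; values past an end of the scale take its end colour), with 1 row per tested member ordered by role and 1 column per library. The sBC columns are blue for nearly all core, base and lid genes, PSME3 is darkest in GFP+ sBC RNA, and PSMD9, PSME1 and PSME4 are red in DE RNA.

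In IP-Ribo, the footprints of most members fell between hPSC and GFP+ sBC. Of the 38 members, 31 were lower and 0 higher, with a median of -1.28, where 28.5% of all genes were lower and 30.4% higher. All 7 beta ring and all 8 lid genes were lower, with 6 of 7 alpha ring and 8 of 9 base genes, 1 of 3 chaperones, here PSMD9 (-0.94 ± 0.31), and 1 of 4 activators, PSME3. The median was -1.94 for the alpha ring, -1.45 for the beta ring, -1.01 for the base and -1.50 for the lid. Unlike in RNA, the lid thus lay below the beta ring, which was not tested. For 37 members the GFP+ libraries lay below both hPSC libraries, against 42% of all genes, and for 1, PSME1, above both, against 40.7%. PSME3 had 258 and 239 CPM in hPSC and 52.3 and 52.4 in GFP+ sBC, a log2 fold change of -2.25 ± 0.24 (adjusted p = 0.000213). PSMB7 went from 607 and 500 CPM to 122 and 112 (-2.24 ± 0.22, adjusted p = 0.000133). Footprints of PSMD14 numbered 359 and 320 CPM in hPSC, 112 and 183 in DE and 79.4 and 68.1 in GFP+ sBC. The log2 fold change from hPSC to GFP+ sBC was -2.20 ± 0.29 (adjusted p = 0.000488), and the 3 stages did not overlap. The members that did not pass were PSMA1 (-0.62 ± 0.26), PSMC4 (-0.31 ± 0.21), PSMD5, PSMD10, PSME1 (0.27 ± 0.21), PSME2 and PSME4 (-0.63 ± 0.29). PSME1 had 154 and 152 CPM in hPSC and 174 and 195 in GFP+ sBC. Markers of other cells stood higher in GFP+ sBC IP-Ribo than in GFP+ sBC RNA. The 5 duct and progenitor genes summed to 987 to 1133 CPM against 184 to 300, the 5 mesenchyme genes to 1303 to 1623 against 313 to 394, and the 5 cycling genes to 35.3 to 89.1 against 5.65 to 8.89, with none of these genes at 0 in GFP+ sBC. Their part in the footprint and TE results of GFP+ sBC was not tested.

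Of the 33 members lower in RNA, 30 (90.9%) were also lower in IP-Ribo, which is 96.8% of the 31 lower there. Over the 38 members the log2 fold changes in RNA and IP-Ribo had a Pearson r of 0.76 and a Spearman rho of 0.76, against 0.83 and 0.83 over the 14798 genes tested in both. These describe genes, which are not independent, in libraries that share stages but no library. Over the 31 core, base and lid genes alone r was 0.60.

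**Figure D3:**
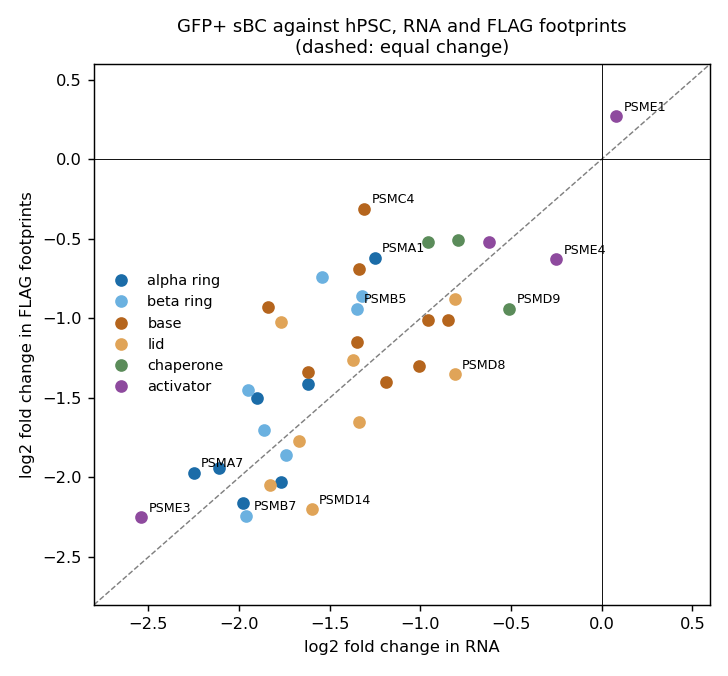
Log2 fold change of GFP+ sBC against hPSC in RNA (x axis) and in FLAG footprints (y axis), with 1 point per tested member coloured by role. Points lie along the dashed line of equal change, with PSMC4 above it (-1.31 in RNA, -0.31 in footprints), PSMD14 below it (-1.60 and -2.20), and PSME1 alone at the upper right.

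Against DE, 17 members were lower in IP-Ribo of GFP+ sBC and 0 higher, with a median of -0.58, where 24.8% of all genes were lower and 27.8% higher. The roles differed in count. Of the beta ring 5 of 7 were lower, of the lid 5 of 8, of the alpha ring 3 of 7, and of the base only PSMC3, the base having a median of -0.09. PSMA7 had 244 and 257 CPM in DE and 81.3 and 63 in GFP+ sBC (log2 fold change -1.80 ± 0.22, adjusted p = 0.000488). PSMB6 had 143 and 114 CPM against 41.8 and 43.3 (-1.59 ± 0.28, adjusted p = 0.00239), and PSMA6 435 and 517 against 166 and 159 (-1.55 ± 0.21, adjusted p = 0.000764). All 17 were also lower in RNA, where they made up 51.5% of the lower members. The libraries did not overlap for 26 members on the lower side and 5 on the higher, against 38.4% and 38.5% of all genes. The median over members was -0.60 without GFP+ IP-Ribo replicate 1 and -0.77 without replicate 2. That of nuclear protein-coding genes was -0.06 and -0.17.

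From hPSC to DE, the RNA of the proteasome moved less, and not in 1 direction. In the fit of the 4 hPSC and DE libraries, 30 members were lower in DE and 5 higher, with a median of -0.31. Those libraries were close to each other and 75.6% of all 20634 genes tested passed, 36.8% lower and 38.7% higher, with a median of 0.01. All 9 base genes fell, with 5 of 7 alpha ring, 6 of 7 beta ring and 6 of 8 lid genes. In a fit of all 8 RNA libraries, which takes its spread also from the sBC, 3 members were lower and 3 higher, where 13.8% of all genes were lower and 14.4% higher. The 3 higher were PSMD9, PSME1 and PSME4, and PSME3 and PSMB2 were among the 3 lower.

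The largest falls were in PSME3, PSMA4 and PSMB2. PSME3, whose levels are given above, had a log2 fold change of -0.68 ± 0.05 (adjusted p = 4.27e-07). PSMA4, an alpha ring subunit, had 237 and 249 CPM in hPSC and 142 and 153 in DE (-0.67 ± 0.05, adjusted p = 5.67e-07), and PSMB2, a beta ring subunit without catalytic activity, had 200 and 212 against 129 and 127 (-0.63 ± 0.05, adjusted p = 4.15e-07). None of these overlapped between the groups, as for 31 members on the lower side, against 46% of all genes, and for 5 on the higher side, against 42.6%.

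The 5 members that rose in DE were PSMD9, PSME4, PSME1, PSMA6 and PSMD8. PSMD9, the chaperone that guides ATPase assembly, had 31.7 and 33.8 CPM in hPSC and 58.4 and 56.9 in DE (log2 fold change 0.87 ± 0.06, adjusted p = 1.33e-07). In GFP+ sBC it had 22.3 and 23.7, below both earlier stages. PSME4, the activator linked to the breakdown of acetylated histones, had 237 and 254 CPM in hPSC, 434 and 414 in DE and 209 and 205 in GFP+ sBC (DE against hPSC 0.84 ± 0.05, adjusted p = 6.68e-08). PSME1 had 57 and 64.2 CPM in DE (0.66 ± 0.07, adjusted p = 4.67e-06). All 3 had both DE libraries above every hPSC and GFP+ sBC library. PSMA6 rose by 0.31 ± 0.05 and the lid subunit PSMD8 by 0.15 ± 0.05 on the log2 scale, and they were the only core, base or lid genes to rise.

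Footprints were lower in DE than in hPSC for most members: 34 of 38 log2 fold changes were negative in Ribo and 36 in IP-Ribo, against 32 in RNA. In Ribo 18 members were lower and 2 higher, with a median of -0.62, where 16.9% of all genes were lower and 17.2% higher. In IP-Ribo 18 were lower and 0 higher, with a median of -0.64, where 12.5% of all genes were lower and 9.78% higher. The DE libraries lay below both hPSC libraries for 32 members in Ribo, against 36.5% of all genes, and above for 4, against 37.2%. In IP-Ribo they lay below for 30 members, against 36.4%, and above for 0, against 28.9%. PSMA4 had 312 and 376 CPM in Ribo of hPSC and 179 and 157 in DE (log2 fold change -1.03 ± 0.19, adjusted p = 0.0134). Its IP-Ribo footprints went from 528 and 433 to 151 and 181 CPM (-1.53 ± 0.23, adjusted p = 0.00502), the largest fall of a member there. PSMD14 fell in both, by 0.95 ± 0.16 in Ribo (adjusted p = 0.0115) and by 1.20 ± 0.28 in IP-Ribo (adjusted p = 0.0221) on the log2 scale. PSMA2 fell by 1.22 ± 0.33 in IP-Ribo (adjusted p = 0.0361).

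The largest fall in Ribo rested on uneven libraries. PSMB3, a beta ring subunit, had 211 and 182 CPM in hPSC and 54 and 93.1 in DE, the lower value in the DE library that stands apart (log2 fold change -1.42 ± 0.30, adjusted p = 0.0215). The 2 members that rose in Ribo had also risen in RNA. PSME4 had 82.1 and 95.1 CPM in hPSC and 154 and 148 in DE (0.77 ± 0.16, adjusted p = 0.0192), and PSMD9 had 13.6 and 13.4 against 23.2 and 18.8 (0.63 ± 0.17, adjusted p = 0.0419). In IP-Ribo neither passed, at 0.36 ± 0.29 and 0.22 ± 0.30, and the DE libraries overlapped those of hPSC.

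Across assays, 15 members were lower in DE in all 3: PSMA2, PSMA4, PSMA5, PSMB3, PSMC2, PSMC5, PSMD1, PSMD4, PSMD5, PSMD11, PSMD12, PSMD13, PSMD14, PSME2 and PSME3. IP-Ribo shared 17 lower members with RNA, 94.4% of its own and 56.7% of those of RNA, and 16 with Ribo, 88.9% of each. Over the 38 members, r between RNA and Ribo changes was 0.86 and between RNA and IP-Ribo 0.73, against 0.82 and 0.80 over all genes tested in both. The counts in footprints depended on single libraries, and so did those of all genes tested. Such a fit leaves 1 library in a group, so medians over members are given here. In Ribo the median was -0.69 without hPSC replicate 1 and -0.61 without its replicate 2. Without DE replicate 1 it was -0.53, and without DE replicate 2 it was -0.61. In IP-Ribo it was -0.70 without hPSC replicate 1 and -0.65 without its replicate 2. Without DE replicate 1 it was -0.64, and without DE replicate 2 it was -0.73. A GFP+ library enters this fit through its filter, scaling and shared spread. Leaving out GFP+ replicate 1 gave -0.64 and replicate 2 gave -0.50. The medians of nuclear protein-coding genes in these fits lay between -0.16 and 0.04.

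**Figure D4:**
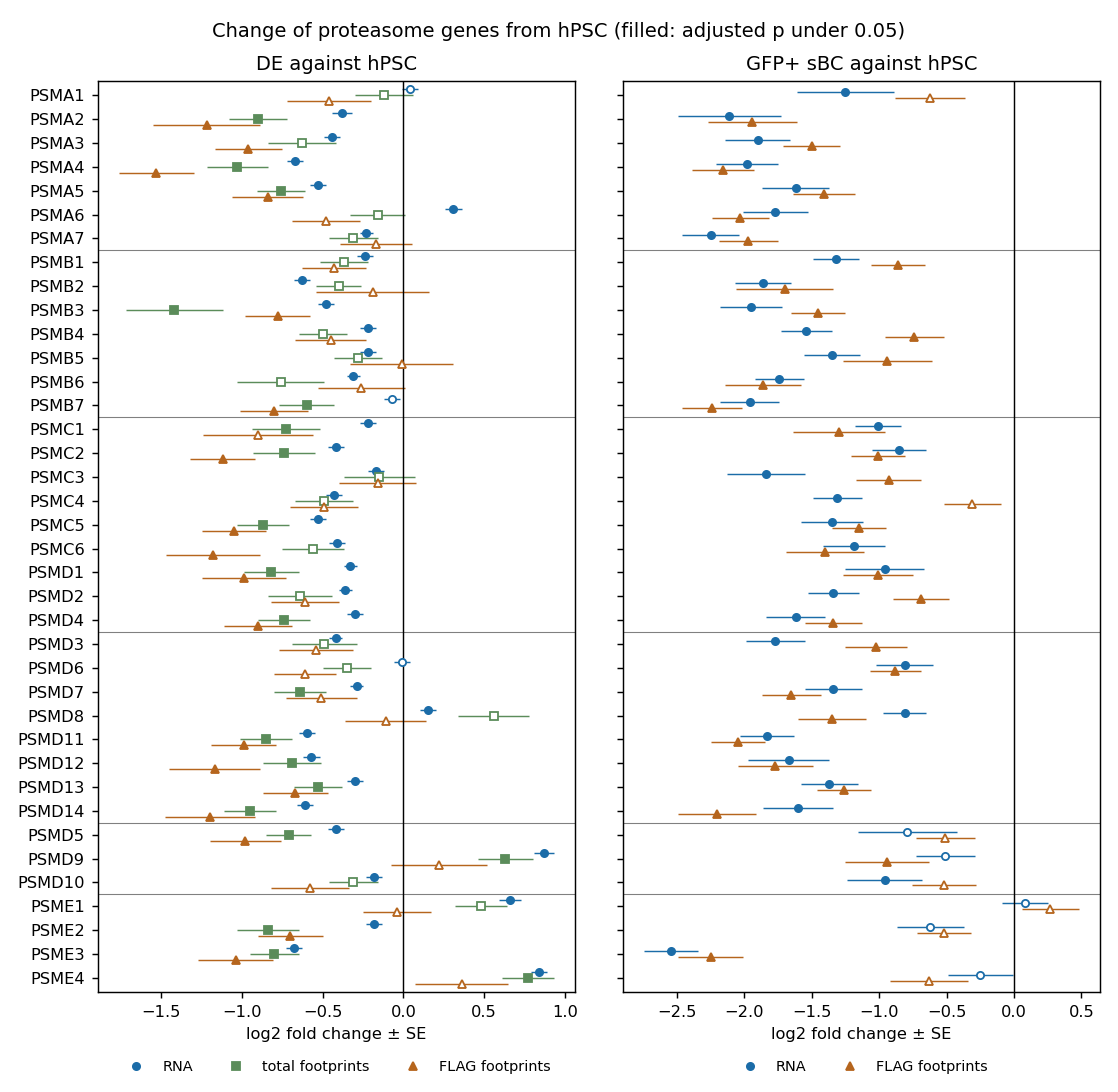
Log2 fold change ± SE (x axis) of each tested member (y axis, ordered by role) from hPSC to DE, left, and from hPSC to GFP+ sBC, right, in RNA, total footprints and FLAG footprints. Filled symbols passed the test. On the right nearly all symbols lie below 0, and PSME1 lies above it at 0.08 in RNA and 0.27 in footprints. On the left PSMD9 and PSME4 lie above 0 in all 3 assays.

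No member passed the test between the footprint assays. In hPSC 0 members passed between IP-Ribo and Ribo, where 0.0899% of all genes were higher in IP-Ribo and 1.06% lower, and in DE 0 passed, where 0.06% were higher and 0.803% lower (edgeR). At an unadjusted p under 0.05 there were 5 members in hPSC, led by PSMD9 (log2 fold change 0.91 ± 0.26, adjusted p = 0.169). In DE there were 11, led by PSMB5 (0.95 ± 0.30, adjusted p = 0.168). Of all 16679 genes tested, 2345 in hPSC and 3276 in DE had such a p. The median over members was 0.25 in each stage, and 31 of 38 in hPSC and 27 of 38 in DE had a positive value. DESeq2 called 2 members higher in IP-Ribo in hPSC and 5 in DE, against 208 and 410 of all 16679 genes. Without DE IP-Ribo replicate 2, the median over members in DE was 0.22 in edgeR.

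Translational efficiency (TE), the change in IP-Ribo relative to the change in RNA tested as an interaction of assay and stage, was called for 1 member. Between hPSC and DE 0 members passed, with a median of -0.15, where 0.0991% of all genes were higher and 0.0675% lower. The median of nuclear protein-coding genes was 0.15. With RLE size factors the median was -0.39 over members and -0.08 over nuclear protein-coding genes. At an unadjusted p under 0.05 there was 1 member, PSMA6, against 2354 of all 22210 genes. DESeq2 called 8 members lower, against 528 of all genes. Between hPSC and GFP+ sBC PSMC4, an ATPase of the base, was higher and 0 members were lower. The median over members was -0.09, where 11% of all genes were higher and 3.98% lower. The median of nuclear protein-coding genes was 0.14. With RLE size factors the 2 medians were -0.22 and 0.01. PSMC4 had 145 and 154 CPM of RNA in hPSC against 55.9 and 65.2 in GFP+ sBC, and 148 and 171 CPM of IP-Ribo against 129 and 127. Its RNA fell while its footprints did not pass the test, and the difference of the 2 log2 fold changes was 0.74 ± 0.21 (adjusted p = 0.0406). With each of the 12 libraries of this fit left out in turn it no longer passed, with values of 0.36 to 0.86. DESeq2 called 1 member higher and 8 lower in this comparison, against 13.3% and 10.2% of all genes. RLE size factors gave 0 members higher and 3 lower, against 2179 and 1305 of all 22210 genes. No filter gave 0 higher and 2 lower, against 1915 and 1191 of all 40765 genes. PSMD14 had the largest value on the other side (-0.85 ± 0.28, adjusted p = 0.0707), followed by PSMD8 (-0.79 ± 0.26, adjusted p = 0.0713). Against DE 0 members passed, with a median of 0.00, where 8.84% of all genes were higher and 5.32% lower. The median of nuclear protein-coding genes was -0.02. At an unadjusted p under 0.05 there were 4 members, against 6282 of all 22210 genes. DESeq2 called 2 members higher and 2 lower there, against 3036 and 1758 of all genes. Leaving out single libraries moved the lower counts to as many as 12 for DE against hPSC (without DE IP-Ribo replicate 2, against 5.65% of all genes) and 14 for GFP+ sBC against hPSC (without DE IP-Ribo replicate 1 or replicate 2, against 10.6% and 10.5%).

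The sort by GFP compared sBC that express the insulin reporter with those that do not. No difference passed for a member: 0 of 38 were higher or lower, and the median was -0.08 (edgeR, as by DESeq2 with 0 in either direction). Of all 19797 genes tested, 0.0808% were higher in GFP+ and 2.35% lower. At an unadjusted p under 0.05 there were 0 members, against 2391 of all genes. Log2 fold changes ran from -0.69 ± 0.39 for PSMC3 to 0.63 ± 0.46 for PSMD5, and their errors leave room for changes of that size. For 4 members both GFP+ libraries were above both GFP- libraries and for 11 below, against 23% and 22.6% of all genes. The 5 duct and progenitor genes summed to 1363 to 1455 CPM in GFP- sBC against 184 to 300 in GFP+ sBC, and the 5 mesenchyme genes to 1730 to 1799 against 313 to 394. GFP- sBC held endocrine RNA as well. The 4 pan-endocrine genes summed to 14437 to 23475 CPM there against 16267 to 19777 in GFP+ sBC, which overlap. The 5 beta cell markers summed to 1379 to 2011 against 5381 to 5678, and 5 markers of other islet cells to 10739 to 16907 against 21221 to 31717. Of the beta and pan-endocrine genes, 0 passed the test in the sort.

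The GFP- libraries differed from each other. Over the members, the median absolute log2 ratio of replicate 1 to replicate 2 was 0.52 in GFP- sBC, against 0.12 in GFP+ sBC, 0.08 in hPSC and 0.04 in DE. PSMD5 had 22.5 and 55.6 CPM in the 2 GFP- libraries and 64.6 and 57 in GFP+. PSMC3 went the other way, with 116 and 63 CPM in GFP- and 51.8 and 59.1 in GFP+. GFP- replicate 1 lay below the other 3 sBC libraries for 20 members and above them for 16. Without GFP- replicate 2, which leaves that library alone against the GFP+ pair, 10 members were higher and 8 lower in GFP+, where 16.8% of all genes were higher and 19.8% lower, and without replicate 1 there were 0 of each. The comparisons of GFP+ sBC with hPSC and DE do not compare GFP- libraries but share their spread. Without both GFP- libraries, a fit chosen after seeing the data, 36 members were lower than in hPSC, against 37.6% of all genes, and 38 lower than in DE, against 39.5%.

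**Figure D5:**
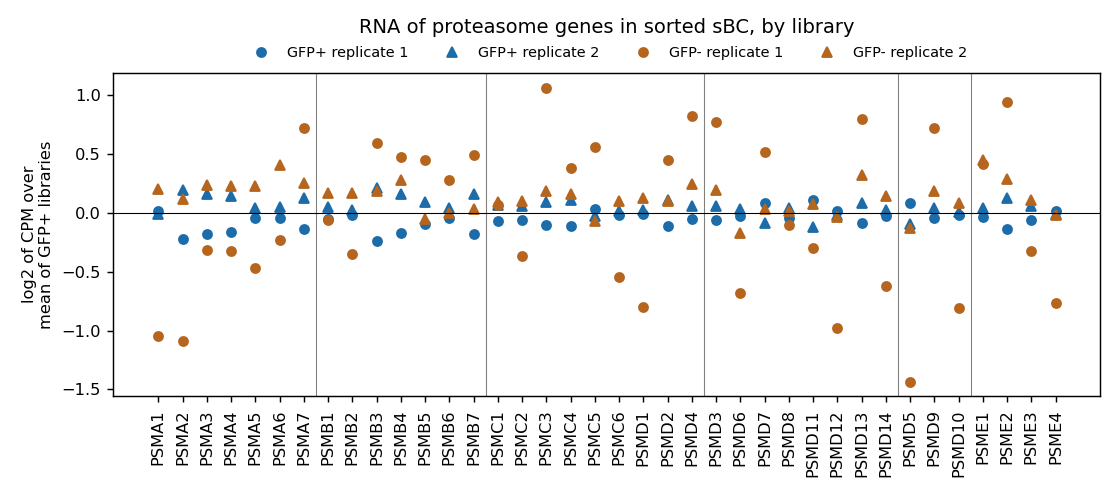
Log2 of RNA CPM over the mean of the 2 GFP+ libraries (y axis) for each tested member (x axis, ordered by role), with 1 symbol per library. GFP- replicate 1 is scattered on both sides, from PSMD5 at the bottom to PSMC3 at the top, while the other 3 libraries lie close together.

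Other genes of the pathway, a list of 32 that regulate, assemble or feed the proteasome, fell more often than they rose in GFP+ sBC. Against hPSC 22 were lower and 2 higher in RNA, with a median of -0.80, where 30.9% of all genes were lower and 30.4% higher. In IP-Ribo 17 were lower and 2 higher, also with a median of -0.80, where 28.5% were lower and 30.4% higher. ADRM1, a ubiquitin receptor of the base, had 182 and 185 CPM of RNA in hPSC, 131 and 125 in DE and 25.9 and 37.3 in GFP+ sBC. Its log2 fold change to GFP+ sBC was -2.54 ± 0.32 (adjusted p = 0.0004), close to that of PSME3. SEM1, the small lid subunit, fell by 1.20 ± 0.26 on that scale (adjusted p = 0.00504). Assembly factors fell as well: PSMG1, a chaperone of the alpha ring, had a log2 fold change of -2.33 ± 0.25 (adjusted p = 0.000171) and POMP, which assembles the beta ring, one of -1.70 ± 0.27 (adjusted p = 0.00119).

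The genes that rose were PSMF1 and NFE2L2 in RNA and PSMF1 and NFE2L1 in IP-Ribo. PSMF1, an inhibitor of the core in vitro, had 96.2 and 101 CPM of RNA in hPSC, 57.7 and 56.3 in DE and 159 and 148 in GFP+ sBC (GFP+ against hPSC 0.64 ± 0.22, adjusted p = 0.0350). Its IP-Ribo footprints went from 47.6 and 53 CPM in hPSC to 121 and 78 in GFP+ sBC (0.99 ± 0.27, adjusted p = 0.0163). Its course was opposite to that of most members in sBC. NFE2L1, the factor that induces proteasome genes when proteasome activity is short, had 137 and 142 CPM of RNA in hPSC and 131 and 144 in GFP+ sBC, which overlap. Its footprints were 14.9 and 17.5 CPM in hPSC and 44.4 and 61.1 in GFP+ sBC (1.70 ± 0.27, adjusted p = 0.00122), and its TE was higher by 1.48 ± 0.27 (adjusted p = 0.00450). NFE2L2, its relative in the oxidative stress response, was highest in DE, with 130 and 116 CPM of RNA against 41.8 and 42.9 in hPSC (1.59 ± 0.06, adjusted p = 2.03e-09).

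In DE against hPSC, 12 of the 32 were lower and 13 higher in RNA, with a median of -0.04, which is near the 36.8% and 38.7% of all genes. The proteasome-bound scaffold ECPAS fell in all 3 assays, with log2 fold changes of -1.11 ± 0.05 in RNA, -1.49 ± 0.16 in Ribo and -1.84 ± 0.22 in IP-Ribo. In the sort 0 of the 32 passed, with 1 at an unadjusted p under 0.05, against 2391 of all 19797 genes tested. The inducible subunits were all lower in DE than in hPSC but differed in sBC. PSMB8, which replaces PSMB5 in immune cells, had 10.1 and 12.4 CPM of RNA in hPSC, 1.53 and 2.19 in DE, 8.20 and 9.67 in GFP+ sBC and 24.2 and 21.6 in GFP- sBC. It was thus lowest in DE, and GFP+ sBC against hPSC gave -0.33 ± 0.25 (adjusted p = 0.279). PSMB10, which replaces PSMB7, had 14.4 and 14.6 CPM in hPSC, 4.58 and 4.89 in DE, 2.75 and 3.28 in GFP+ sBC and 16.5 and 6.26 in GFP- sBC. It fell from hPSC to GFP+ sBC by 2.26 ± 0.44 on the log2 scale (adjusted p = 0.00310). PSMB9, which replaces PSMB6, had 7 to 57 counts in an RNA library and fell between the same groups by 1.16 ± 0.40 (adjusted p = 0.0355).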

How the data were processed

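RNA-seq and ribosome footprints of 18 libraries in 9 groups of 2 were analysed. The deposited values are estimated counts per gene in 1 table, made by the authors with tools that the submitters' processing notes name as Salmon, UMI-tools, cutadapt, Bowtie and DESeq2, on GRCh38, without versions or roles. The annotation release and the use of strand are not given in the sources used here, so antisense partners may not be told apart from members. Per library 16.8% to 31.3% of values were not whole numbers, and all were rounded. Of the identifiers, 57030 (98.7%) matched a table of gene names, and 44 rows were pseudogenes of members, with 0.159% to 2.343% of the members' counts.

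Fits used R 4.3.3 and edgeR 4.0.16 (filterByExpr, TMM, robust quasi-likelihood F test) on the whole table, with Benjamini-Hochberg adjustment over all genes tested and an adjusted p under 0.05 called a change. They held 4 libraries for DE against hPSC in RNA, for Ribo and for the sort, 8 where GFP+ sBC RNA was compared with hPSC or DE, 6 for IP-Ribo, 8 for IP-Ribo against Ribo and 12 for TE, giving 13 comparisons. Standard errors are those implied by the F statistic. The scripts were tested on simulated data in which few genes were changed. A log2 change of 1 was recovered in 90% of changed genes for DE against hPSC in RNA. In the sort it was 0%, for GFP+ sBC against hPSC in RNA 2%, and for IP-Ribo against Ribo in hPSC 6%. For DE against hPSC it was 10.1% in Ribo, 4% in IP-Ribo and 1% in TE. A log2 change of 2 was recovered in 99% for DE against hPSC in RNA and in 33% to 76% elsewhere. The adjusted p depends on how many genes change. In the data, 30.9% of genes were lower and 30.4% higher for GFP+ sBC against hPSC in RNA. The simulated rates therefore do not carry over to comparisons in which many genes changed. Alternatives were RLE size factors, no filter, a strict filter (1 CPM and 10 counts in 2 libraries), DESeq2 1.42.0, a replicate block, protein-coding nuclear genes alone, a fit of RNA from all 4 cell groups, TE from Ribo instead of IP-Ribo, each library left out in turn, and, added after seeing the data, 6 RNA libraries without GFP- sBC. Values per library are given for the catalytic subunits, PSMD14, PSMD2, PSMD4, chaperones, activators and tissue forms, for the 3 called members of each comparison and direction that changed most without overlap between libraries, and for up to 4 pathway genes that changed most. Other members, SEM1, UBA1 and further pathway genes were named after their values were seen. The members and lists were chosen with earlier results of these data known. Python 3.11.15 (numpy 2.4.6, pandas 2.3.3, matplotlib 3.10.9) made the tables and figures. Coordinates and promoter windows are from RefSeq GRCh38.p14.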

Additional observations from a re-analysis of the deposited data

Results flagged for a closer look

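The TE of PSMC4, an ATPase of the base, differed between stages by a test of the difference itself: the change from hPSC to GFP+ sBC was larger by 0.74 on the log2 scale in IP-Ribo than in RNA (SE 0.21, edgeR adjusted p = 0.0406, 1 of 38 members). Of all 22210 genes tested in this comparison, 11% were higher and 3.98% lower. The footprints of PSMC4 in GFP+ sBC, 129 and 127 CPM, lay below both hPSC libraries, as did its RNA. It passed with a strict filter (0.77), with DESeq2 (0.61) and with protein-coding genes alone (0.78), and did not pass with RLE size factors (0.61), without a filter (0.54), with the replicate block (0.75) or without any single library (0.36 to 0.86). Against DE the TE value was 0.46 ± 0.21 (adjusted p = 0.189).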

How the results depend on the processing

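The smallest footprint library held 6.61 M counts, and 2 libraries per group limit the precision of every test. The alternatives were followed for the tested members that the rules given above select, and pathway genes were not included. Of 1196 values of results called in the main fits, 1020 kept the call and 176 lost it, 126 of these with 1 library left out. The cause of the changes below was not tested, and with 1 library left out the number of all genes called moved as well. For DE against hPSC in RNA, all 8 RNA libraries gave 3 members higher and 3 lower. In Ribo the replicate block gave 0 higher and 8 lower, against 1939 and 1710 of all 15454 genes. Protein-coding genes alone gave 4 higher, against 3131 of the 12691 in that fit. In IP-Ribo the block gave 10 lower, against 1380 of all 16018 genes. DESeq2 gave 1 higher for GFP+ sBC against DE in IP-Ribo, against 4592 of all 16018 genes. For IP-Ribo against Ribo, no filter gave 1 higher in hPSC and 2 in DE, against 217 and 569 of all 35468 genes. DESeq2 gave 2 higher in hPSC and 5 in DE, against 208 and 410 of all 16679 genes. For TE, DESeq2 gave 8 lower for DE against hPSC and 8 lower for GFP+ sBC against hPSC. In the latter, RLE size factors gave 0 higher and 3 lower and no filter 0 higher and 2 lower. The counts or shares of all genes in these TE fits are given above. The block gave 0 higher there, against 2137 of all 22210 genes. For TE of GFP+ sBC against DE, DESeq2 gave 2 higher and 2 lower, against 3036 and 1758 of all 22210 genes. Protein-coding genes alone gave 3 higher, against 2813 of 15650 genes. The strict filter gave 1 lower, against 1202 of 18656 genes, and the block 1 lower, against 936 of 22210. The replicate numbers were not taken as pairs, since the correlation of replicate differences between groups ran from -0.14 to 0.12. The block moved no other count by over 1.5 times.

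Leaving out 1 library at a time, the ranges were 0 to 10 higher and 0 to 8 lower in the sort, 21 to 38 lower for GFP+ sBC against DE in RNA, 0 to 3 higher and 0 to 17 lower in Ribo, 1 to 15 lower for DE against hPSC and 9 to 18 lower for GFP+ sBC against DE in IP-Ribo, and 0 to 1 higher for IP-Ribo against Ribo in DE. For TE they were 0 to 12 lower for DE against hPSC, 0 to 0 higher and 0 to 14 lower for GFP+ sBC against hPSC, and 0 to 2 higher and 0 to 2 lower for GFP+ sBC against DE.

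The 33 values that changed sign belong to genes that had not passed the test, and the ranges of their log2 fold changes with 1 library left out at a time follow. In the sort they were -0.15 to 1.10 for PSMA2, -0.26 to 0.33 for PSMA4, -0.44 to 0.24 for PSMA6, -0.20 to 0.36 for PSMB2, -0.44 to 0.02 for PSMB5, -0.12 to 0.82 for PSMD10, -0.17 to 0.63 for PSMD14, -0.14 to 0.33 for PSME3 and -0.01 to 0.77 for PSME4, and PSMA4 had -0.00 without a filter. In IP-Ribo of DE against hPSC they were -0.69 to 0.18 for PSMB2, -0.54 to 0.37 for PSMB5, -0.57 to 0.08 for PSMB6, -0.19 to 0.53 for PSMD9, -0.22 to 0.12 for PSME1 and -0.06 to 0.69 for PSME4. There PSMB5 also had 0.07 with RLE size factors, 0.01 with the strict filter, 0.07 with DESeq2 and 0.11 with protein-coding genes alone, and PSME1 0.02, 0.02 and 0.07 with RLE size factors, DESeq2 and protein-coding genes alone. In IP-Ribo of GFP+ sBC against DE they were -0.42 to 0.04 for PSMD2 and -0.22 to 0.15 for PSMD10, which had -0.10 without a filter. In GFP+ sBC against hPSC PSME4 had 0.06 with protein-coding genes alone.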

Other observations

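Genes that carry ubiquitin or bring substrates to the proteasome, from the same list of 32, differed among themselves. In GFP+ sBC against hPSC the RNA of the shuttle factor UBQLN4 fell by 1.60 ± 0.19 on the log2 scale (edgeR adjusted p = 0.000258), that of the proteasome-bound deubiquitinase USP14 by 1.57 ± 0.33 (adjusted p = 0.00461) and that of VCP, the ATPase that extracts ubiquitinated proteins from membranes and complexes, by 1.18 ± 0.24 (adjusted p = 0.00365). In DE against hPSC, VCP rose by 0.43 ± 0.04 and the ubiquitin-activating enzyme UBA1 by 0.45 ± 0.04 on that scale in RNA, while most core, base and lid genes fell.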
